A study of Mus musculus with 6 samples.

Results

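Every adenosine of the cytosolic tRNA references was examined for bases misread by reverse transcriptase, for read starts and for deletions in small RNA from mouse brain. The members were all reference positions with an adenosine on a reference that is not mitochondrial, listed in all 6 deposited files. There were 1056 such positions of 6130 listed in all 6 files, on 133 references of 46 anticodon families. Near-identical gene copies often carried the same reads. Positions of one family with identical base counts in all 6 libraries were therefore counted once, which left 988 distinct adenosine sites. Of these, 635 distinct sites in 36 families had at least 100 reads in each library, and percentages below refer to them unless a lower depth is stated.

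The 6 libraries came from total brain RNA of wild-type mice (3 libraries) and of mice with a TRMT1L knockout (3 libraries), labelled as biological triplicates. The RNA was depleted of ribosomal RNA and size-selected from 30 to 150 bp. The labels name no treatment and do not give the knockout allele, strain, age or sex. They also do not say how many animals gave each library, so p-values measure the spread between these libraries. TRMT1L is a paralogue of TRMT1, which methylates guanosine 26 of tRNAs, and the design asks which tRNA positions differ without it. Each share averages over all cell types of the brain. The tissue and the loss of the TRMT1L transcript were not checked here, since only tRNA references were measured. Base calls numbered 6151209, 6295061 and 6274159 in the wild-type libraries and 8295437, 7981301 and 8797395 in the knockout libraries. No position held more than 8032 reads, as a depth limit would give, and 17 references came close to that limit in at least 1 library.

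Transfer RNAs are heavily modified. Adenosine 58 of the T loop is methylated at nitrogen 1 in many tRNAs by TRMT6-TRMT61A, and the methyl group blocks the face of the base that pairs. Reverse transcriptase then stops one base before it, which leaves a read that starts at position 59, or inserts a wrong base. Adenosine 34, the first base of the anticodon, is deaminated to inosine by ADAT2-ADAT3 in several families, and inosine pairs with cytosine and is read as guanine. In alanine tRNA, adenosine 37, beside the anticodon, becomes 1-methylinosine.

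The T-arm windows (positions 49 to 65) of the sites with high, intermediate and near-zero mismatch are shown because the results turn on position 58, the capital letter. They were read from the deposited reference bases, 5′ to 3′, with T for uracil.
Met-CAT-1: gtgagttcgAtcctcac
Arg-CCT-1: gtgggttcgAgtcccac
Glu-CTC-1, Glu-TTC-3, Gly-CCC-1 and Gly-GCC-2: ccgggttcgAttcccgg
Asp-GTC-1: cggggttcgAttccccg
Asp-GTC-2: cggggttcaAttccccg
Met-CAT-2: ctgagttcgAacctcag
Lys-TTT-1 and Lys-TTT-2: cagggttcaAgtccctg
Leu-CAA-1 to Leu-CAA-4 and Leu-CAG-2: gtgggttcgAatcccac
Val-CAC-1: cccggttcgAaaccggg
Ser-GCT-4: gtgggttcgAatcccat
Asn-GTT-3: ggtggttcgAgcccacc
Glu-TTC-1: ccgggttcgActcccgg
Genome coordinates are not given, because the references carry tRNA names alone.

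The anticodon arms (positions 27 to 43) of the references read at adenosine 34, and of the reference with mismatch at adenosine 37, follow, with that adenosine in capitals.
Val-AAC-4: ctcgcctAacacgcgag
Val-AAC-5: ttcgcctAacacgcgaa
Ile-AAT-1 and Ile-AAT-3: tggtgctAataacgcca
Leu-AAG-1: ctggattAaggctccag
Ala-TGC-6: catgctttgcAtgtatg

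Most adenosines were read correctly. At 348 of the 635 sites no wrong base was called in any library, at 204 the pooled mismatch was above 0 and under 0.1%, and at 42 it lay from 0.1% to under 1%. A further 17 sites lay between 1% and 5%, and 24 sites, called hotspots here, reached at least 5%. That is 3.78% of the adenosine sites, beside 1.77% of 1072 guanosine sites (19 sites), 0.477% of 839 cytidine sites (4 sites) and 0.358% of 839 thymidine sites (3 sites). These shares are descriptions, since sites of related references share reads. The hotspots fell almost wholly on 2 canonical positions: 4 lay at position 34, 19 at position 58 and 1 at position 66 of Asp-GTC-2. Among the 601 adenosine sites outside positions 34 and 58, the site at position 66 was the only hotspot.

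**Figure D1:**
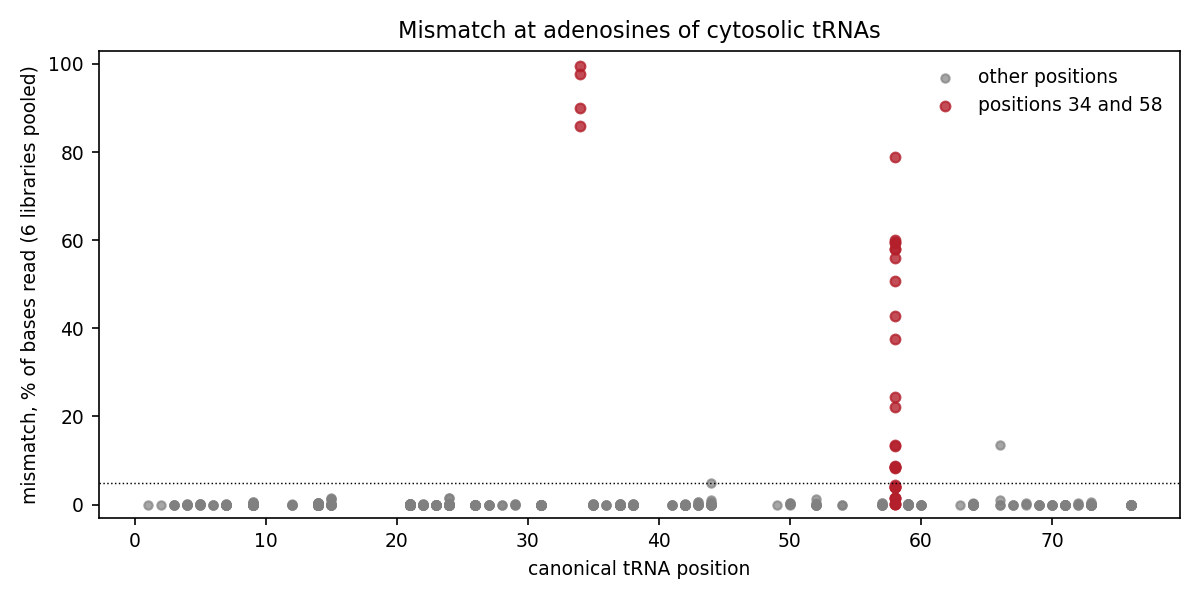
Pooled mismatch (% of bases read over 6 libraries) of each numbered distinct adenosine site with at least 100 reads in each library, by canonical tRNA position; the dotted line marks 5%. Sites at position 34 lie between 85.9% and 99.6%, those at position 58 spread from 0.0711% to 78.9%, and at other positions only position 66 of Asp-GTC-2, at 13.6%, lies above the line, with position 44 of Asp-GTC-2 just under it at 4.98%.

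The threshold of 5% fell at the lower edge of a gap between 4.98% and 8.24%. Just outside it were position 44 of Asp-GTC-2 (4.98%), position 58 of Val-CAC-1 (4.403%) and position 58 of Val-AAC-1 (4.09%, a value shared with Val-AAC-5). Just inside were position 58 of Leu-CAA-1 (8.24%), Leu-CAA-2 (8.55%) and Leu-CAA-4 (8.58%).

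Adenosine 34 was read as guanine in nearly every read of the valine references and less often in the isoleucine and leucine references, which had a pooled mismatch of 85.9% in Ile-AAT-1, 89.9% in Ile-AAT-3 and 80.4% in Leu-AAG-1. The design listed 8 families in which this base is deaminated, and adenosine 34 was listed in all 6 files for 3 of them: Val-AAC, Ile-AAT and Leu-AAG. In Val-AAC-4, a valine tRNA read by 572 to 1781 bases per library, the mismatch was 99.3%, 98.7% and 99.5% in the wild-type libraries and 97.7%, 95.3% and 98.1% in the knockout libraries. All 3 knockout values lay below all 3 wild-type values. Means were 99.1% ± 0.425 and 97.0% ± 1.52 (SD, n = 3 each), with adjusted p = 0.698 in the quasi-binomial test fitted across all sites with limma-moderated dispersion. Of the wrong bases, 99.8% were guanine.

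Val-AAC-5 held fewer reads, from 136 to 386 per library, at a median base quality of 21 to 23, against 40 in Val-AAC-4. Its mismatch was 99.3%, 100% and 99.0% in wild type and 100%, 100% and 99.2% in the knockout, so the groups overlapped, and 99.7% of the wrong bases were guanine. The isoleucine tRNAs were lower. Ile-AAT-1 had 92.4%, 89.0% and 83.3% in wild type and 87.2%, 82.7% and 82.4% in the knockout. Ile-AAT-3, which has the same anticodon arm and shares most reads, had 94.6%, 92.2% and 88.4% against 91.0%, 87.8% and 86.7%. In both isoleucine references the knockout mean was lower, by 4.17 and 3.23 percentage points, but the groups overlapped (adjusted p = 0.720 for each, limma-moderated quasi-binomial test). Without wild-type replicate 1 the differences were -2.08 and -1.80 percentage points, and without wild-type replicate 3 they were -6.63 and -4.88. Every wrong base at the isoleucine sites was guanine.

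Leu-AAG-1 was read only 32 to 133 times per library. Its adenosine 34 was called wrong in 65.6%, 67.4% and 90.9% of wild-type bases and 86.5%, 83.3% and 75.6% of knockout bases. The Wilson 95% interval of the first wild-type library ran from 48.3% to 79.6%, and the values of the 2 genotypes overlapped. Intervals here cover counting error alone. Averaged over the 4 sites with at least 100 reads, mismatch at position 34 was 94.6% ± 1.95 in wild type and 92.3% ± 1.41 in the knockout (SD over 3 libraries). The difference of -2.30 percentage points stood beside a pooled SD of 1.70, and the libraries overlapped: 96.4%, 94.96% and 92.6% against 94.0%, 91.5% and 91.6%. With Leu-AAG-1 added as the fifth listed site the difference was -0.410 percentage points, with reads pooled over the 4 sites it was -1.36, and without wild-type replicate 1 it was -1.42.

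Adenosine 58 gave the widest range of any position. It was listed at 62 distinct sites in 33 families, of which 30 sites in 14 families had at least 100 reads in each library. Their pooled mismatch ran from 0.0711% in Glu-TTC-2 to 78.9% in Met-CAT-1, with a median of 8.63%.

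An elongator methionine reference, Met-CAT-1, stood highest among the 30 sites with at least 100 reads in each library. Met-CAT-1 was called wrong in 78.5%, 61.8% and 82.9% of wild-type bases and 84.1%, 80.9% and 84.0% of knockout bases. Wild-type replicate 2 was the low library and the other 5 lay between 78.5% and 84.1%. Thymine made up 95.7% of the wrong bases and guanine 4.22%. Met-CAT-2, the other elongator reference, reached 27.0%, 22.3% and 24.1% against 30.2%, 29.2% and 17.5%, and guanine was 20.5% of its wrong bases, the rest nearly all thymine. The initiator references iMet-CAT-1 and iMet-CAT-2 had no wrong call among 574 and 450 bases at adenosine 58, which allows shares of up to 0.523% and 0.667%. Their shallowest libraries held 79 and 65 reads.

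The arginine references Arg-CCT-1 to Arg-CCT-4 share nearly all their reads and lay together, between 57.97% and 60.2%. In Arg-CCT-1 the libraries had 52.7%, 59.6% and 69.9% in wild type and 65.8%, 58.7% and 56.6% in the knockout, so the groups overlapped fully. Thymine was 98.8% of its wrong bases.

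Glutamate tRNAs spanned a wide range. Glu-CTC-1 was the deepest adenosine 58, with 5554 to 7397 bases per library on a reference at the depth limit. Its mismatch was 31.3%, 27.8% and 37.8% in wild type and 60.2%, 32.5% and 30.8% in the knockout. Knockout replicate 1 alone was high, and the other 5 libraries lay between 27.8% and 37.8%. Glu-CTC-2 had 41.0%, 31.9% and 56.1% against 75.7%, 59.4% and 58.5%, with all knockout values above all wild-type values. Its means were 43.0% ± 12.2 and 64.5% ± 9.68 (SD, n = 3), a difference of 21.5 percentage points that did not pass the limma-moderated quasi-binomial test (adjusted p = 0.654). Glu-TTC-3, a reference whose listed part carries the same T arm as Glu-CTC-1, had 46.7%, 43.5% and 60.7% against 70.9%, 49.5% and 58.4%. Glu-TTC-1 and Glu-TTC-2 were at 0.119% and 0.0711%, with at most 0.465% in any library of Glu-TTC-2.

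Gly-CCC-1 had 49.6%, 21.7% and 65.4% in wild type and 69.5%, 62.8% and 53.9% in the knockout. Wild-type replicate 2 was again the lowest library. Gly-GCC-2 shares the 17 bases from 49 to 65 with Gly-CCC-1, Glu-CTC-1 and Glu-TTC-3, but held only 55 reads in its shallowest library. Of its 462 bases at position 58, 0 were called wrong, which allows a share of up to 0.649%. Identical T arms thus ran from 0, at this shallower site, to 56.0%. Aspartate tRNAs were intermediate: Asp-GTC-2 had 55.3%, 37.1% and 32.0% against 44.6%, 47.7% and 62.5%, and Asp-GTC-1 had 15.6%, 24.5% and 21.4% against 22.8%, 22.7% and 20.99%. In the 3 glutamate hotspots, Gly-CCC-1 and both aspartate references, thymine was at least 98.8% of the wrong bases.

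**Figure D2:**
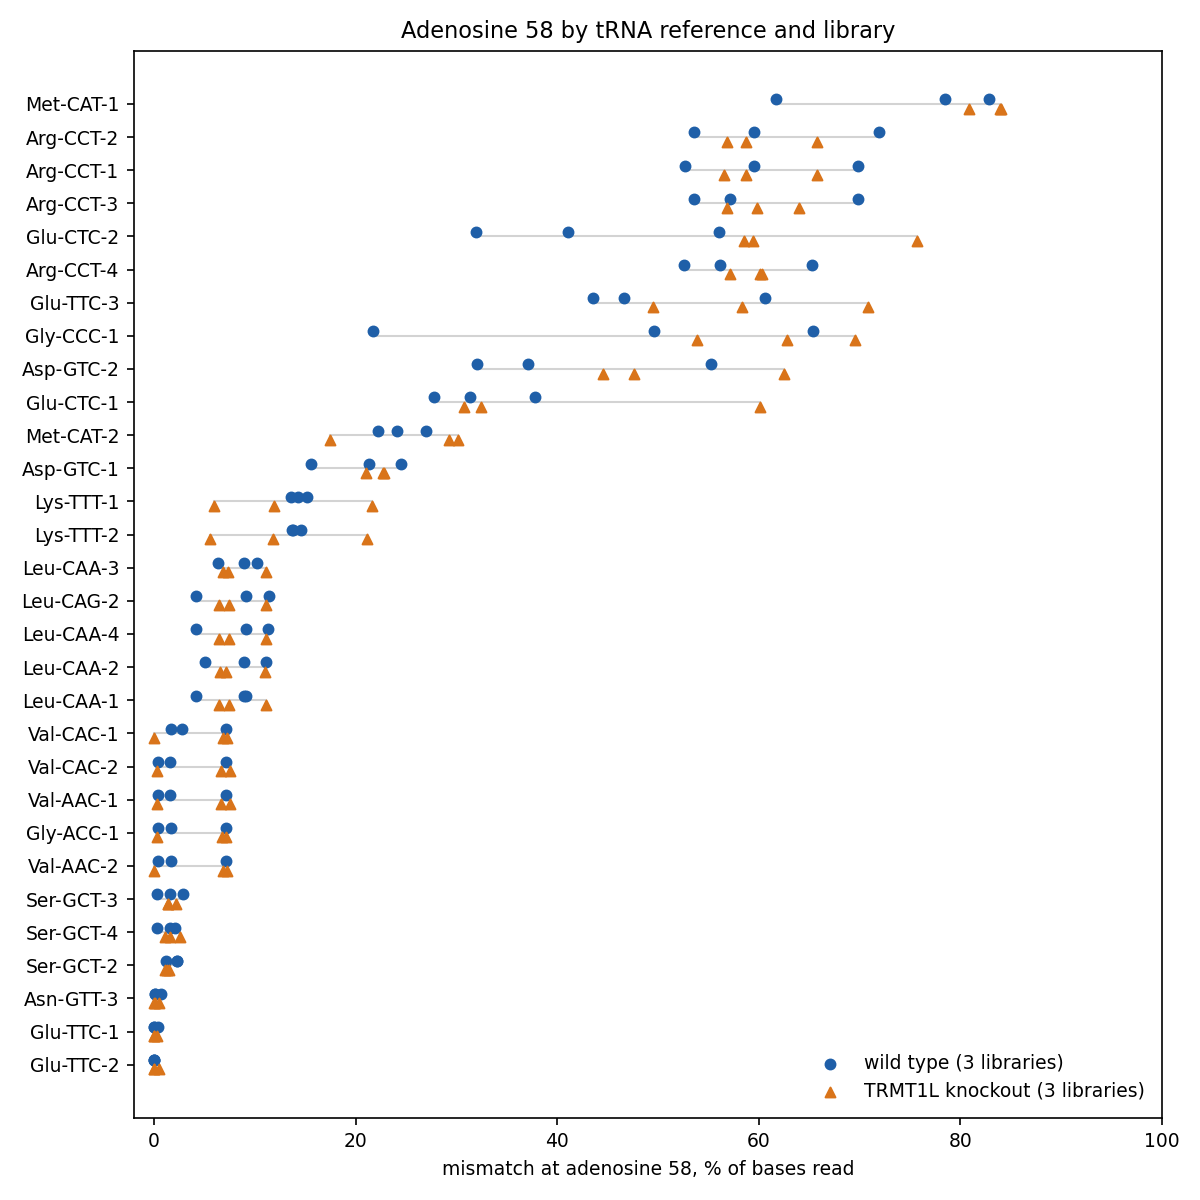
Mismatch at adenosine 58 (% of bases read) in each of 30 distinct tRNA sites with at least 100 reads per library; circles are the 3 wild-type libraries, triangles the 3 knockout libraries, and the grey line spans all 6. References differ from below 1% to 78.9% pooled, and the 2 genotypes overlap in every row above 5% except Glu-CTC-2.

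Lysine and leucine tRNAs were misread as guanine instead. Lys-TTT-1 had 13.6%, 14.3% and 15.1% in wild type and 21.6%, 5.90% and 11.8% in the knockout, and Lys-TTT-2, which shares its T arm, nearly the same values. The wild-type libraries were tight (SD 0.770) and the knockout libraries spread on both sides of them (SD 7.95). Guanine was 99.6% of the wrong bases in Lys-TTT-1. The 5 leucine references share 1 T arm and lay between 8.24% and 8.67%. Leu-CAA-4 had 9.09%, 11.3% and 4.19% against 11.1%, 7.46% and 6.44%, with guanine at 98.8% of the wrong bases.

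The remaining deep sites were low. The valine sites had 3.998% to 4.403% pooled. Val-CAC-1 had 2.81%, 1.67% and 7.14% in wild type and 7.18%, 0% and 6.80% in the knockout, so the groups overlapped. Gly-ACC-1 (4.03%) is covered here over the same 3′ part as the valine references and had nearly their counts. The serine references Ser-GCT-2, Ser-GCT-3 and Ser-GCT-4 lay between 1.56% and 1.58%, and Asn-GTT-3 was at 0.231%.

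Sites with 30 to 99 reads in the shallowest library are less certain. Selenocysteine tRNA, SeC-TCA-1, had the highest value of all, 84.8% pooled, every wrong base a thymine, with 72.7% to 90.1% over the 6 libraries. Arg-CCG-1 was at 69.1% with a mix of guanine (57.4%) and thymine (41.0%), and Arg-TCG-2, with the same T arm, at 68.7%. Trp-CCA-5 was at 64.1%, with guanine at 89.7% of the wrong bases, while Trp-CCA-1, Trp-CCA-3 and Trp-CCA-6 stayed between 2.03% and 2.05%. Tyr-GTA-2 and Tyr-GTA-3, with the same counts, were at 13.2%. Gly-TCC-1, at 93 reads or more and a median base quality of 23 to 29, had 15.3%. Proline, glutamine and other serine references lay between 0.370% and 3.72%.

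The loop sequence alone did not fix the level. The 8 listed sites with the loop ttcgAttc (positions 54 to 61) ran from 0 in Gly-GCC-2 to 58.1% in Glu-CTC-2. The loop ttcgAtcc held Met-CAT-1 at 78.9% and Ala-CGC-1 and Ala-TGC-2 at 0.498% and 0.496%, the last pair with only 71 and 74 bases in their shallowest libraries. Grouped by the base that follows adenosine 58, the 7 deep sites followed by T ran from 22.1% to 78.9% (median 50.8%), the 14 followed by A from 1.56% to 24.4% (median 4.25%), and the 2 followed by C stayed under 0.12%. The 7 followed by G held Asn-GTT-3 at 0.231%, the lysine pair at 13.3% and 13.6% and the 4 arginine references near 60%. Over all listed sites the ranges were wider. The 13 followed by T ran from 0 to 84.8% (median 37.7%), with Gly-GCC-2, Ala-CGC-1 and Ala-TGC-2 at the low end. The 3 followed by C reached 3.66%, the 33 followed by A ran from 0 to 24.4% and the 13 followed by G from 0.183% to 69.1%. Among the deep sites guanine was at most 4.22% of the wrong bases where T followed. Where G followed it ran from 0.612% in Arg-CCT-1 to 99.6% in Lys-TTT-1. The grouping was made after values were seen, and sites within a group share reads, so it carries no test.

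**Figure D3:**
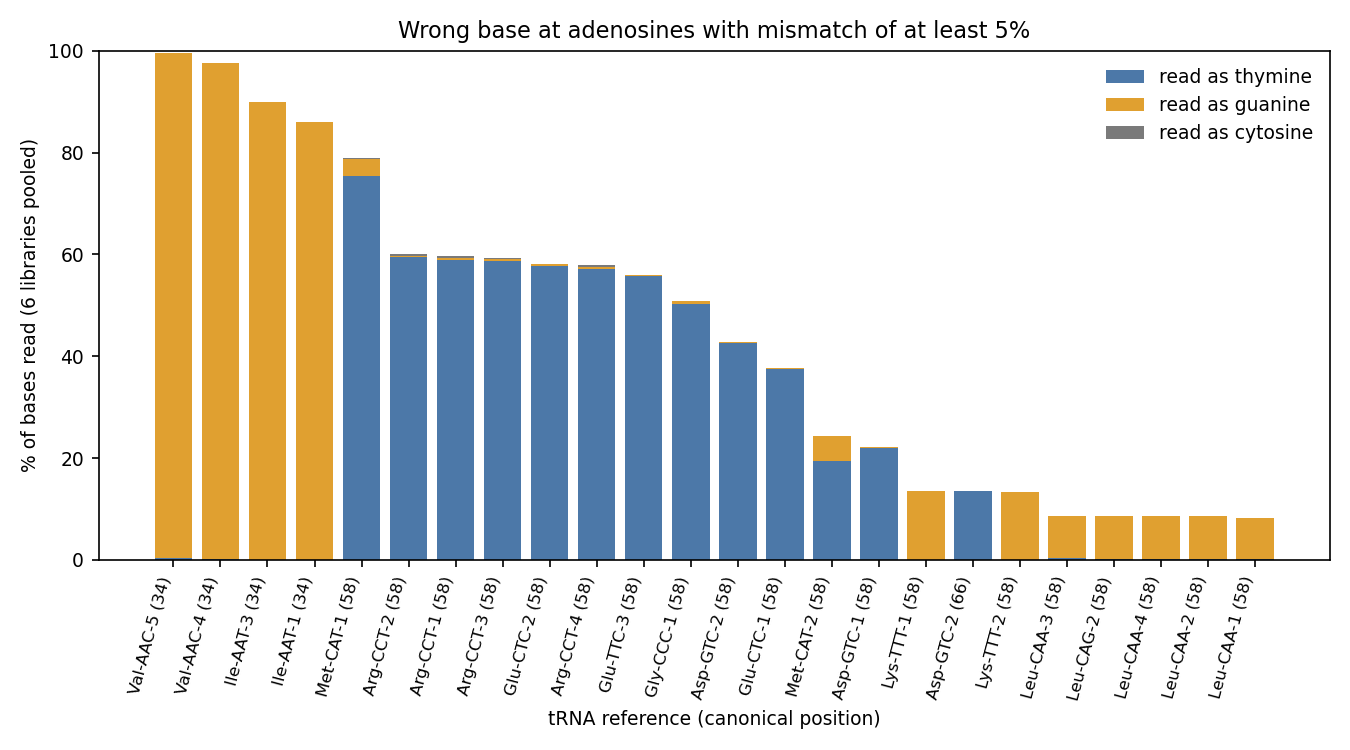
Wrong base at the 24 adenosine hotspots, as % of bases read over 6 libraries, split by the base called; each bar is 1 tRNA reference with its canonical position in brackets. Position 34 is read as guanine, most position 58 sites as thymine, and the lysine and leucine sites at position 58 as guanine.

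The wrong base was compared across libraries at the hotspots. Over the 6 libraries the guanine share of wrong bases ran from 98.8% to 100% in Lys-TTT-1, from 0.0448% to 0.454% in Glu-CTC-1, from 1.42% to 5.81% in Met-CAT-1 and from 6.85% to 28.6% in Met-CAT-2. In Leu-CAA-3 it was 61.9% in wild-type replicate 3 and at least 93.0% elsewhere, and in Leu-CAA-2 it was 81.3% in wild-type replicate 3 and at least 94.9% elsewhere.

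Reads either passed through adenosine 58 or began near it, depending on the tRNA. A read start is given as the share of reads covering a position that begin there. At the 19 hotspots of position 58 the start share at position 59 had a median of 0.101% and a range of 0 to 2.07%, and at position 58 itself a median of 0.0250%. Gly-CCC-1 held the highest value at position 59 and was the hotspot with most such starts: 1.44%, 0.976% and 2.92% in wild type and 0.9901%, 6.21% and 1.64% in the knockout. Arg-CCT-1 to Arg-CCT-4 and both lysine references had no read start at position 58 or 59.

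The valine references showed the opposite pattern. Mean coverage of Val-CAC-1 was 5110 reads at position 60, 1535 at position 59 and 276 at position 58. At position 60, 69.0%, 70.5% and 71.2% of wild-type reads and 68.6%, 66.4% and 73.1% of knockout reads began there. At position 59 the shares were 76.9%, 86.8% and 85.3% in wild type and 77.2%, 84.3% and 81.1% in the knockout. Positions 59 and 60 of valine are adenosines themselves, and neither was misread above 0.11%. Means at position 59 were 83.0% ± 5.35 and 80.9% ± 3.53 (SD, n = 3), adjusted p = 0.875 in the limma-moderated quasi-binomial test. Ser-CGA-2 had a like share at its adenosine 59, with 78.6% of reads starting there. Its pooled mismatch at position 58 was 3.72%, with 66 reads in its shallowest library. That share came from wild-type replicate 1 (12.2%) and knockout replicate 1 (6.50%), with 0% elsewhere. The valine and serine starts were singled out after their values were seen.

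Many reads also began at position 55, the pseudouridine position of the T loop. At 13 of the 30 sites, from leucine, serine, the same valine references and Gly-ACC-1, between 82.1% and 97.9% of the reads covering position 55 began there. Their mismatch at adenosine 58 ran from 1.56% to 8.67% (median 4.09%). At the other 17 sites at most 4.88% of reads began at position 55, and mismatch ran from 0.0711% to 78.9% (median 42.7%). Glu-TTC-1, Glu-TTC-2 and Asn-GTT-3 belonged to the second group and were all below 0.3%. Reads of the first group thus cover position 58 close to their 5′ end, and the part of read position in the mismatch was not tested. Related references in both groups share reads, and the grouping was made after values were seen, so the medians are descriptions.

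**Figure D4:**
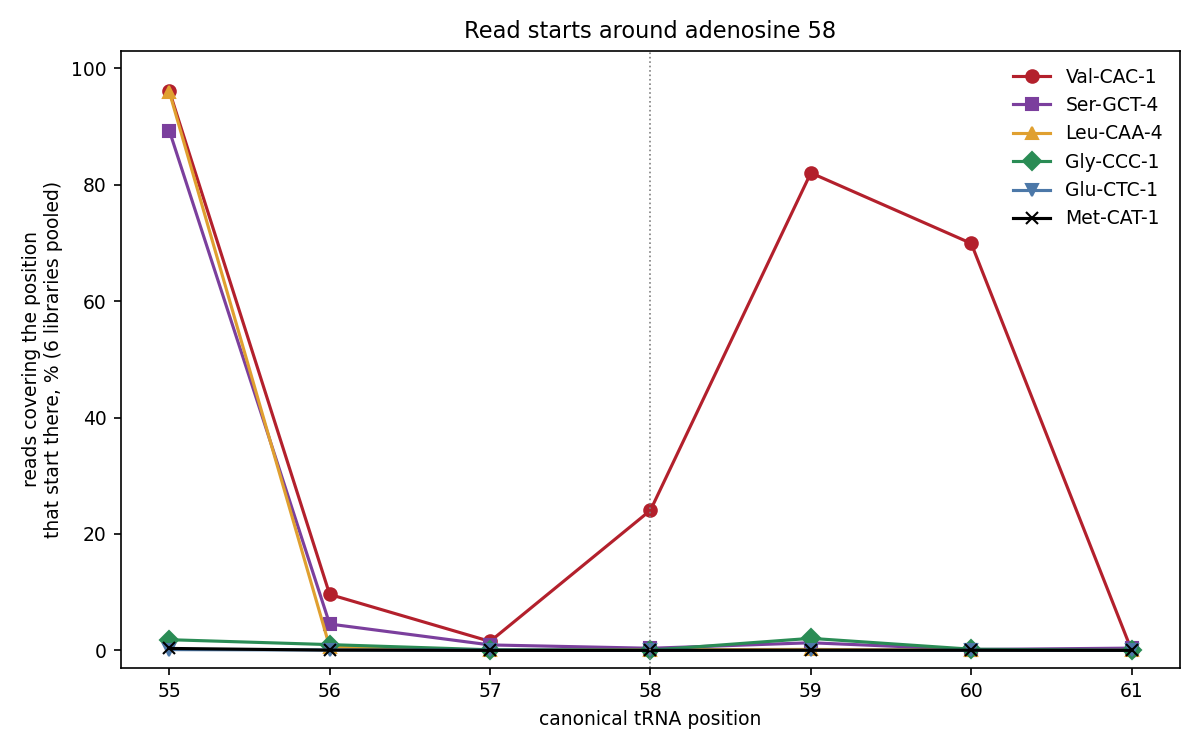
Share of reads covering each canonical position from 55 to 61 that start there (%, 6 libraries pooled) for 6 tRNA references; the dotted line marks adenosine 58. Val-CAC-1 peaks at positions 59, 60 and 55, Ser-GCT-4 and Leu-CAA-4 at position 55, and Gly-CCC-1, Glu-CTC-1 and Met-CAT-1 stay at 2.07% or less.

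Reads could also end near the site on the 3′ side. In Lys-TTT-1, 70.7% of the reads covering position 60 ended there and 12.2% ended at position 59, so adenosine 58 was read there close to the 3′ end of the fragment. In Lys-TTT-2 the share at position 60 was 74.7%, and at the other hotspots it was at most 1.34%. Coverage that rises by more than the read starts gives small negative values by this count, the lowest of them -6.15% at position 59 of Arg-CCT-1. Mean coverage there dipped, from 207 reads at position 56 to 192 at position 59 and 204 at position 60. Listed deletions were 6.06% at position 57 and 9.72% at position 58, and their part in the dip was not tested.

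Deletions at adenosine 58 were few outside arginine. At Met-CAT-1 they took 0.222%, 2.69% and 2.19% of wild-type reads and 3.25%, 1.59% and 2.09% of knockout reads. At Arg-CCT-1 the listed deletions came to 19.9%, 2.08% and 12.3% against 7.11%, 7.51% and 1.91%. Coverage without a base call at the same site was 6.52%, 0% and 4.90% against 8.41%, 0% and 6.82%. The listed deletions and the missing base calls differ there in every library, so the level of deletion in arginine is uncertain.

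Position 37, beside the anticodon, was read correctly in nearly all tRNAs. At 31 distinct sites in 17 families the highest pooled mismatch was 0.0999%, in Ile-AAT-3. These families include tRNAs in which adenosine 37 carries large side chains at nitrogen 6, such as threonylcarbamoyladenosine, which are usually still read as adenosine. The mean over sites was 0.0114% ± 0.00445 in wild type and 0.0169% ± 0.0215 in the knockout (SD over 3 libraries). The sign of this difference was not stable: without knockout replicate 2 the knockout mean was 0.00471%, below wild type, and the knockout was also lower over all 47 listed sites, at coverage of at least 500 and with reads pooled over sites. Ala-TGC-6, with 87 to 328 bases per library, was the exception among the 47 listed sites. It had 19.6%, 21.8% and 28.2% in wild type and 27.6%, 16.5% and 22.4% in the knockout. All wrong bases in wild type were guanine, 21, 19 and 29 calls. The knockout libraries held 60, 43 and 43 guanine calls and also 29, 11 and 8 thymine calls. The difference in wrong base was noticed after the values were seen and was not tested.

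The other positions named for modification in tRNAs were near 0. Pooled over the 6 libraries, mismatch reached at most 0.526% at position 9 (29 sites), 0.366% at position 14 (65 sites), 0.0225% at position 26 (20 sites) and 0.293% at position 57 (7 sites). Single libraries went higher. At position 9, Asp-GTC-4 had 1.90%, 1.14% and 0% in the knockout and 0% in each wild-type library, and Asp-GTC-1 had 1.86%, 0.972% and 0% against 0% throughout, so the groups overlapped at 0. At position 14, Ser-GCT-3 had 2.91% in wild-type replicate 1 and 0% in the other 5 libraries, and at position 57, Gln-CTG-4 had 1.62% in knockout replicate 1 and 0% in the others. None of the 19 deep sites at position 76, the terminal adenosine of the CCA end, had a wrong call. At position 66, Asp-GTC-2 had 3.94%, 20.6% and 10.2% in wild type and 17.1%, 7.48% and 0% in the knockout, all thymine. Asp-GTC-1 at the same position had 1.01% pooled. The Asp-GTC-2 values scattered within both genotypes, so no level can be given for either.

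One library produced signals that the others lacked. At 3 adenosine sites mismatch was at least 5% in 1 library and under 1% in every other, and each time the library was wild-type replicate 2: 18.3% at position 44 of Asp-GTC-2, 6.64% at position 44 of Met-CAT-1 and 7.85% at position 52 of Met-CAT-1. Over all reference bases of the cytosolic references there were 20 such sites, 15 in wild-type replicate 2 and 5 in knockout replicate 1. Listed adenosines under 100 reads held larger values of this kind. Position 43 of Thr-CGT-2 was at 76.5% of 179 bases in wild-type replicate 2 and 0% in the other libraries, which held 31 to 95 bases. Its variable-region adenosine was at 74.5% of 184 bases in wild-type replicate 2, with 1.04% in knockout replicate 1 and 0% elsewhere. The variable-region adenosine of Arg-TCG-1 was at 38.0% of 92 bases in wild-type replicate 2 and 0% in the other libraries, which held 37 to 59 bases. Every wrong base at these 3 sites was guanine.

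Read starts were more common than misreading across the adenosines. At 65 of the 635 sites (10.2%) at least 5% of covering reads began there, and at 35 sites at least 20% did. Cytidine had 9.30%, guanosine 8.30% and thymidine 14.4% of sites past 5%. None of the 65 adenosine sites was a mismatch hotspot, and the highest mismatch among them was 4.403%. Position 37 held 9 of these sites in 5 families, with 30.0% at Gln-TTG-1, a glutamine tRNA. Position 15 held 5, up to 55.7% at Gln-CTG-1, position 14 held 4, up to 53.4% at Lys-TTT-2, and position 42 held 6, up to 42.8% at Arg-CCT-1. In Gln-CTG-1 the shares at position 15 were 66.5%, 63.6% and 54.9% in wild type and 46.6%, 52.5% and 59.6% in the knockout. A read start can be a stop of reverse transcriptase or the end of an RNA fragment, and these files do not separate them.

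No adenosine differed between genotypes past the threshold. For mismatch, 142 sites of all reference bases were tested and 0 passed an adjusted p of 0.05 (0%). Of the 43 adenosine sites among them, 2 had an unadjusted p under 0.05, position 44 of Asp-GTC-2 and position 58 of Glu-CTC-2, and the lowest adjusted p was 0.654. Limma on arcsine-transformed shares also called 0, with 1 adenosine site under 0.05 unadjusted. The first of the 2 rested on wild-type replicate 2 alone, since the other 5 libraries had no wrong base there. Next by p were position 58 of Gly-CCC-1 (difference 16.5 percentage points, adjusted p = 0.654 in the limma-moderated test), position 34 of Val-AAC-4 and position 44 of Met-CAT-1. Without wild-type replicate 2 the Gly-CCC-1 difference was 4.59 percentage points, and without wild-type replicate 3 it was 26.4. At Val-AAC-4 the difference was -2.11 percentage points with all libraries and -1.24 without knockout replicate 2. Groups that do not overlap were seen at 2 adenosine sites, Glu-CTC-2 and Val-AAC-4, and at 3.52% of all 142 tested sites. With a minimum of 50 reads it was 6 of 66 adenosines, beside 4.78% of all 209 tested sites, with a lowest adjusted p of 0.597 in the limma-moderated test. The added ones were glutamine references at position 58, on 8 wrong bases each. Gln-CTG-4 had 3.33%, 1.61% and 2.11% in wild type and 0.826%, 0% and 0% in the knockout, and Gln-CTG-3, Gln-TTG-1 and Gln-TTG-3 had nearly the same values. Gln-CTG-2, with 17 wrong bases, overlapped between genotypes.

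**Figure D5:**
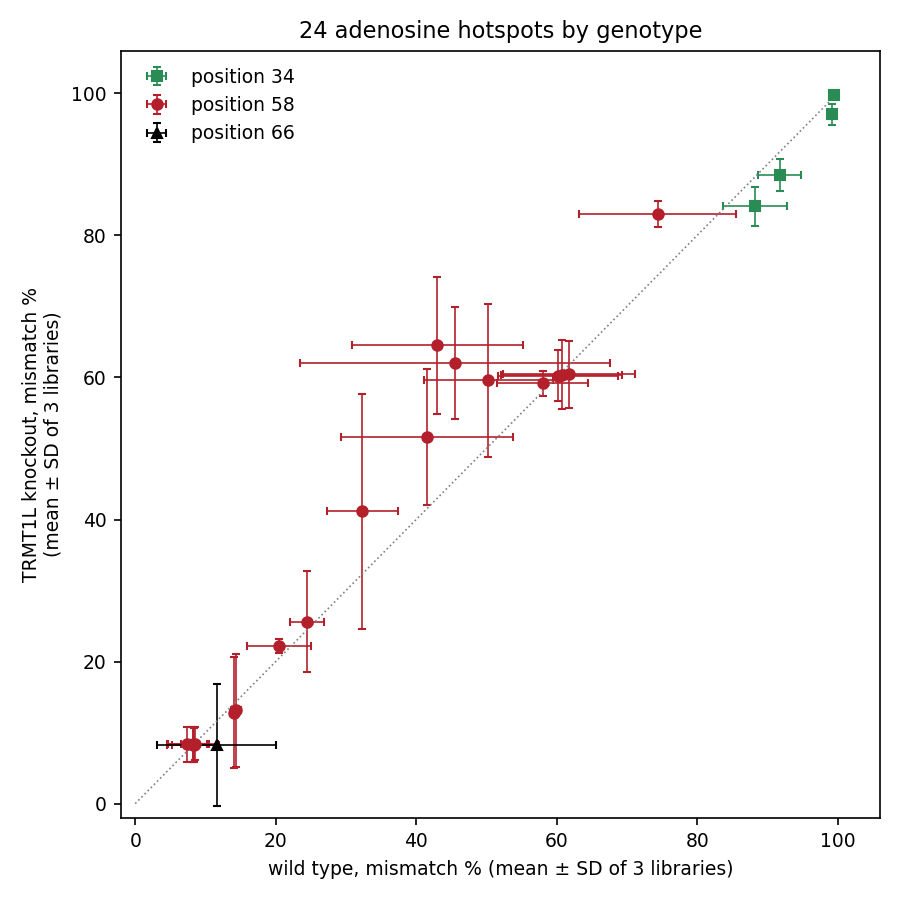
Mean mismatch (%) of the 24 adenosine hotspots in 3 wild-type libraries (x axis) against 3 knockout libraries (y axis), with error bars of 1 SD; the dotted line marks equal values. Position 58 sites between 30% and 80% lie mostly above the line with error bars that reach across or near it, and position 34 sites lie on or below it.

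At position 58 the knockout mean was higher at 13 of 19 hotspots, many of which share reads. Over all 142 tested sites the knockout mean was higher at 58.5%. The mean over the 30 sites of position 58 was 21.3%, 20.04% and 24.9% in wild type and 28.4%, 22.5% and 23.6% in the knockout, so the libraries overlapped. Group means were 22.1% ± 2.53 and 24.9% ± 3.14 (SD, n = 3), and their difference of 2.78 percentage points was within the pooled SD of 2.85. It was 1.001 without knockout replicate 1, 1.76 without wild-type replicate 2 and 4.20 without wild-type replicate 3. It was 1.35 over all 62 listed sites, 1.58 over the 4 sites with at least 500 reads and 1.67 with reads pooled over the 30 sites. No p is given for these averages, since the members were chosen with results known.

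For read starts, 4 of 1042 tested sites passed (0.384%), and none of the 155 adenosine sites among them was called. At 5 adenosine sites the unadjusted p was under 0.05, with a lowest adjusted p of 0.561, and the arcsine test with limma called 0 adenosines and had 8 under 0.05 unadjusted. The knockout and wild-type libraries did not overlap at 24 of the 155 adenosine sites, beside 14.2% of all tested sites. The lowest p belonged to position 44 of Ile-AAT-1, an adenosine of the variable region, where 1.15%, 8.54% and 2.22% of wild-type reads and 0.256%, 0% and 0% of knockout reads began (adjusted p = 0.561, limma-moderated quasi-binomial test). Wild-type replicate 2 was the highest library. At position 37, Glu-TTC-1 had 3.45%, 6.84% and 4.90% against 1.29%, 2.58% and 2.73%. Asp-GTC-1 had 6.71%, 11.96% and 7.37% against 3.76%, 4.66% and 5.85% at the same position. Both were lower in every knockout library, with means of 5.06% ± 1.70 and 2.20% ± 0.793, and of 8.68% ± 2.86 and 4.76% ± 1.05 (SD, n = 3), and both had an adjusted p of 0.654.

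For deletions, 62 sites were tested and 0 were called (0%), with 8 adenosines among them. At 2 adenosines the unadjusted p was under 0.05, the lowest adjusted p was 0.458, and the arcsine test with limma called 0 and had 0 adenosines under 0.05 unadjusted. Both were in Glu-TTC-3, at position 68 of the acceptor stem and at position 73, where wild-type replicate 2 had 29.0% and 20.6% and the other 5 libraries had 0. At none of the 8 adenosines were the genotypes apart in all libraries, beside 8.06% of all tested sites.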

How the data were processed

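The authors deposited 1 table per library of raw counts per reference position: coverage, A, T, C and G calls, reverse-transcription stops, deletions and insertions, per the file headers. The same files hold mean and median base quality scores, per the file headers. GATK 3.5 is named in the submitters' processing notes; the aligner, reference set and build are not given in the sources used here. Positions under 30 reads were not listed.

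Canonical numbers came from anticodon, T-loop and CCA motifs or a match to a reference of the same amino acid; 30 adenosines stayed unnumbered. Stops were moved by 1 position, which explained 84.4% of coverage rises against 48.8% as listed. Deletions were placed on the deleted base, which matched at 1349 of 1349 sequences. Listed deletions equalled coverage without a base call (within 1 read) at 49.2% of 1392 positions.

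Mismatch is the share of called bases other than A. Sites with at least 100 reads in each library and a pooled rate of at least 1% entered a two-sided quasi-binomial model per site, whose dispersion limma 3.58.1 (R 4.3.3) moderated across sites, never below 1; p-values were adjusted by Benjamini-Hochberg over the whole table, mitochondrial references included. Named sites were all adenosines with pooled mismatch of at least 5%, 3 sites each side of that threshold, positions 58, 34 and 37 throughout and 9, 14, 26, 57 and 76 by range, called sites or, with none, the lowest p, and the neighbouring read starts. Members and lists were chosen with earlier results of these data known. The test was checked on data simulated on the real coverages. With odds changed by a factor of 4, it recovered 45.7% of changed mismatch sites, 20% of read-start sites and 6.67% of deletion sites. With no change it called 0 sites. The simulated spread between libraries was a fixed setting, not matched to these data. The 0 calls thus do not exclude changes of that size. Libraries of one genotype differed beyond sampling noise (chi-square per degree of freedom 20.6 to 62.5 over 145 references). Alternatives changed the coverage and rate minimum, the test, copies, references, the stop position, the replicate block and single libraries.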

Additional observations from a re-analysis of the deposited data

Results flagged for a closer look

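Insertions, which no comparison used, were listed in at least 1% of pooled reads at 11 distinct adenosine sites with 100 or more reads per library. All 3 knockout libraries lay above all 3 wild-type libraries at 1 of them (9.09%), the terminal position 76 of Ser-GCT-3, beside 2 of 27 sites over all bases (7.41%). The share of reads with an insertion was 1.58%, 3.10% and 1.77% in the knockout libraries (mean 2.15%) and 0.321%, 1.16% and 1.5% in the wild-type libraries. These shares rest on 6, 14 and 5 knockout reads and 1, 3 and 3 wild-type reads, and the difference was not tested. At the same position of Ser-GCT-2 and Ser-GCT-4, references of the same family, the genotypes overlapped, with the lowest knockout library at 0% and 0.364% and the highest wild-type library at 1.49% and 1.52%. At position 67 of Glu-TTC-2 the knockout mean of 2.70% came from knockout replicate 1 alone, at 8.09%, and the wild-type libraries were at 0.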

How the results depend on the processing

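No adenosine was called for mismatch, read starts or deletions under any alternative that left adenosines to test; with 0 calls this says little about stability. Deletions with coverage of at least 500, and deletions at the position where they are listed (an alternative added after seeing the data, as were identical counts entered once across families and coverage without a base call), left no adenosine. The lowest adjusted p over the mismatch alternatives ran from 0.109 to 0.953. Correlations of same-numbered libraries were -0.364, 0.350 and 0.119 for mismatch, 0.0444, 0.196 and 0.0349 for starts, and 0.896, -0.813 and -0.859 for deletions. In none of the 3 were all pairs over 0.1, so the numbers were not taken to pair the libraries. With the replicate block in the limma-moderated quasi-binomial test 0 adenosines were called, with lowest adjusted p-values of 0.109 for mismatch, 0.238 for starts and 0.0612 for deletions. The differences at positions 58, 34 and 37 stayed at 2.78, -2.30 and 0.00551 percentage points. A block cannot change a difference of means in this balanced design, so that says nothing about stability. Over the 24 hotspots 362 alternative values gave no call, with 31 changes of sign.

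Leaving out each library in turn gave 0 calls throughout and differences from 1.001 to 4.20 percentage points at position 58, -3.35 to -1.42 at position 34 and -0.00671 to 0.0136 at position 37. Without knockout replicate 1 the difference at position 58 was 1.001, and without wild-type replicate 2 it was 1.76. Taking every listed site moved position 34 to -0.410 and position 37 to -0.0102, and coverage of at least 500 moved position 37 to -0.0178. Position 58 was 1.35 over every listed site, 1.58 with coverage of at least 500 and 1.67 with reads pooled, and position 34 was -1.36 with reads pooled. Coverage of at least 500 left 1 site at position 34 and 4 at position 58. At sites near 100 reads a single library's share carries a counting error of several points. Libraries also differed at high depth, as at adenosine 58 of Glu-CTC-1, which ran from 27.8% to 60.2%.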
